A study of Homo sapiens with 4 samples.

Results

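The replication-dependent histone genes are here 68 protein-coding genes of the count table, of 67008 genes listed. Their current symbol, matched through the gene identifier, is H1-1 to H1-6 or begins with H2AC, H2BC, H3C or H4C and a number. They comprised 6 H1, 15 H2A, 19 H2B, 13 H3 and 15 H4 genes, and 13 pseudogenes with such symbols were left out. The identifier match gave no such symbol for the H2A identifiers named HIST2H2AA3 and HIST2H2AA4 in GENCODE 29. They had 1 to 11 counts in each library and are not included. RefSeq lists an H2AC19 gene that no identifier was matched to, so the H2A class here may be incomplete. The genes were compared between SAS cells, a human oral squamous carcinoma line, that expressed an shRNA against luciferase (shLuc, named Ctrl in the labels, 2 libraries) and SAS cells that expressed an shRNA against STAU1 (shSTAU1, 2 libraries). All 4 libraries came from virally infected cells with the genotype listed as WT, and were made from total RNA with the TruSeq RNA Exome kit, which captures coding exons with probes. The labels name the line C3H 10T1/2, a mouse fibroblast line, whereas the organism is listed as human, the cell type as oral cancer and the growth protocol as that of SAS cells. Whether libraries of the same group came from separate infections or cultures is not stated, so the p-values measure only the spread between these libraries.

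Histones package DNA into nucleosomes. An H3-H4 tetramer and a pair of H2A-H2B dimers form the core, and the linker histone H1 binds the DNA that enters and leaves it. Replication-dependent histone mRNAs are made in S phase, when new DNA needs packaging, and they end in a conserved stem-loop in place of a poly(A) tail. The stem-loop-binding protein SLBP binds this hairpin and takes part in the processing, translation and decay of the mRNA, and decay when DNA synthesis stops requires the helicase UPF1. STAU1 is a protein that binds double-stranded RNA and can recruit UPF1 to target mRNAs, in a decay pathway known as STAU1-mediated decay.

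The stem-loop is shown first, because it is the feature that these mRNAs share and that SLBP recognises. The 16-base histone stem-loop consensus was searched in the GENCODE 29 transcripts, and it was found in 29 of the 34 members whose annotated transcript runs 20 bases or more past the stop codon. Among all 19702 genes with a coding transcript, 40 held it (0.203%). A form found in 15 members of the H2A, H2B and H3 classes is shown from H2AC8 and H2BC13, a form found in 4 members from H2BC5, the form of H3C6, which no other member had, and the form of 5 H4 genes from H4C5. Capitals mark the stem-loop, and the lower-case letters are the 5 flanking bases on each side, written 5′ to 3′.
H2AC8: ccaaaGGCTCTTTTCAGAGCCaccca
H2BC13: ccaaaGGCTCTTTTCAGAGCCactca
H2BC5: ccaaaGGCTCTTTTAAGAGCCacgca
H3C6: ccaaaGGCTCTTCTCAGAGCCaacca
H4C5: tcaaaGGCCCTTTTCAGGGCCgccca

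Promoters were taken from RefSeq (GRCh38.p14), 250 bases before to 50 bases after the start site, and 62 of the 68 members were matched. Both strands were searched for the CCAAT box, for the TATA box as TATAAA, and for the octamer ATTTGCAT, and none of these motifs contains another. CCAAT was present in every matched promoter of the H1, H2A, H2B and H3 classes (6, 14, 18 and 11 promoters) and in 3 of 13 H4 promoters, against 35.7% of all 27305 promoters. TATAAA was present in 64.5% of the members' promoters and in 12.0% of all promoters. The octamer, known as the binding motif of OCT1 (POU2F1), was present in 11 of 14 H2A and 14 of 18 H2B promoters, in 1 of 11 H3 promoters and in 0 of 6 H1 and 0 of 13 H4 promoters, against 1.80% of all promoters. The 26 members with an octamer had it at 17 positions, because 8 positions lay in the promoters of more than 1 member, mostly an H2A and an H2B gene transcribed away from each other. These windows are shown because they are shared in this way, and each lies beside at least 1 gene that rose: the H2BC14 window (chr6:27814963-27814992, plus strand) is also that of H2AC14 on the minus strand, the H2BC21 window (chr1:149886710-149886739, minus strand) is also that of H2AC20, and the H2BC8 window (chr6:26216718-26216747, minus strand) is also that of H2AC8. Capitals mark the octamer.
H2BC14: ttctactcctaATTTGCATaataacattta
H2BC21: tcggagccctaATTTGCATaaggtggttat
H2BC8: ttgaattctttATTTGCATgaaaggcctat

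The libraries held 33009118 and 32206655 counts in Ctrl and 35180221 and 36301574 counts in shSTAU1, and 14303 genes passed the filter on low counts. STAU1, the targeted gene, was measured at 249 and 251 CPM in the Ctrl libraries and 41.6 and 41.5 CPM in the shSTAU1 libraries, so that 16.6% of the Ctrl level remained (log2 fold change -2.59 ± 0.13 SE, adjusted p = 0.00103, edgeR). Levels are given throughout as CPM, counts per 1000000 counts after scaling by the trimmed mean of M-values (TMM). Keratinocyte genes marked the libraries: KRT5, a basal keratin, stood at 3236 and 3387 CPM in the Ctrl libraries and 5488 and 4893 CPM in the shSTAU1 libraries, and it rose in shSTAU1 (log2 fold change 0.65, adjusted p = 0.0408), as did SFN, an epithelial cell cycle checkpoint protein (log2 fold change 1.43, adjusted p = 0.0285). Not all squamous markers had higher values: DSG3, a desmosomal cadherin, had a log2 fold change of -0.76 (adjusted p = 0.0731) with both shSTAU1 libraries below both Ctrl libraries, and CDH1, the epithelial cadherin, one of -0.29 (adjusted p = 0.51). The 9 squamous markers summed to 7551 and 7118 CPM in the Ctrl libraries and 11354 and 8703 CPM in the shSTAU1 libraries. Of the 8 fibroblast markers, COL3A1, LUM, DCN and THY1 were at or below 0.0297 CPM in every library, while COL1A1 and VIM fell (log2 fold changes -1.35 and -1.44, adjusted p = 0.036 and 0.0467), COL1A2 had a log2 fold change of 1.01 (adjusted p = 0.185), and the list summed to between 22.4 and 69.5 CPM. The 4 leukocyte markers summed to at most 0.481 CPM and the 3 endothelial markers to at most 18.0 CPM in any library. The part of these marker differences in the histone values was not tested.

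Histone mRNA was higher in the shSTAU1 libraries in all 5 classes. The 68 genes took 0.961% and 0.930% of the counts in the Ctrl libraries and 1.32% and 1.57% in the shSTAU1 libraries. Their summed level was 9437 and 9146 CPM in the Ctrl libraries and 13301 and 16089.9 CPM in the shSTAU1 libraries. Both shSTAU1 sums lay above both Ctrl sums, and the means were 9292 ± 206 CPM in Ctrl and 14695 ± 1972 CPM in shSTAU1 (mean ± SD, n = 2 each), 1.58-fold. In bulk RNA, a larger share of cells in S phase and more histone mRNA in each such cell cannot be told apart. An exact permutation test of 2 libraries against 2 reaches a two-sided p of 0.333 at best, and the sums are therefore described without a test.

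At the level of single genes, 51 of the 68 members passed the filter on low counts. Of these, 12 rose in shSTAU1 (adjusted p under 0.05, edgeR quasi-likelihood test with Benjamini-Hochberg adjustment over all tested genes) and 0 fell, that is 23.5% of the tested members against 1.13% of all tested genes that were called higher and 1.48% that were called lower. Without adjustment, 48 members had a p under 0.05 with a higher level in shSTAU1 and 0 with a lower level (all tested genes, higher: 12.9%). Both shSTAU1 libraries lay above both Ctrl libraries for 49 members (96.1%, against 28.5% of all tested genes), and only H1-6 and H3C6 overlapped. The median log2 fold change was 0.65 over the tested members and 0.01 over all tested genes. The number of members called higher changed with single libraries and with the model, and so did the share of all tested genes called higher, given in parentheses. It was 1 without Ctrl replicate 1 (0.447%), 2 without Ctrl replicate 2 (0.475%), 48 without shSTAU1 replicate 1 (9.94%) and 28 without shSTAU1 replicate 2 (6.15%). DESeq2 called 36 (5.4%), limma-voom 12 (1.08%), edgeR with an adjusted p of 0.10 called 35 (5.85%) and with a 1.5-fold change at an unadjusted p of 0.05 called 33 (6.47%). Without the filter on low counts 0 were called (0.00806%), and 47 had an unadjusted p under 0.05. The median log2 fold change stayed between 0.48 and 0.79 in these fits. Without shSTAU1 replicate 2, the log2 fold change of 20 of the 51 members was lower by more than 1.5 times, and none of the 12 called genes was among them.

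The members are short and GC-rich. Length was taken as the merged annotated exons of all transcripts of a gene, and GC content as that of its longest transcript. The median exon length was 488 bases over the tested members and 4670 bases over all tested genes with a value, and the median GC content was 57.4% and 47.7%. A correction was fitted in each library to remove its dependence on this exon length and on GC content. With it, 4 members remained called (all 4 among the 12), 103 genes were called higher in all (0.72% of those tested), and the members' median log2 fold change was 0.55. The part of length and GC content in the other 8 calls was not tested further. Near-identical copies also bear on the calls of single genes. Words of 50 bases were compared among the members' coding sequences only, and not with other genes. Of the 50-base words in the coding sequence, 16.3% were unique to H2AC14, 17.7% to H2AC13, 25.9% to H2BC12, 53.3% to H2BC21 and 72.3% to H2BC6, and the counts of these called genes are therefore uncertain, as reads may be split among copies. In the other 7 called genes 85.5% or more of the words were unique.

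**Figure D1:**
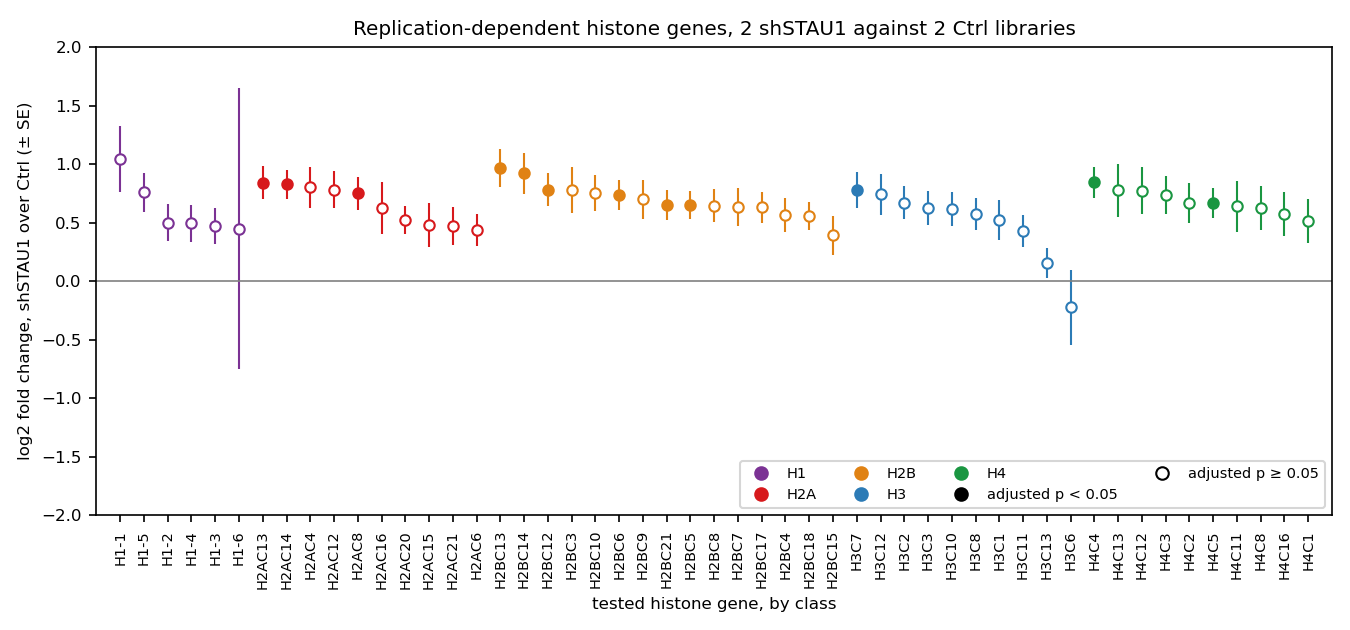
Log2 fold change of shSTAU1 over Ctrl (vertical axis, ± SE) for the 51 tested histone genes, ordered by class and by value, from 2 libraries per group. Filled circles mark the 12 genes with an adjusted p under 0.05, all above 0, and only H3C6 lies below 0, at -0.22.

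**Figure D2:**
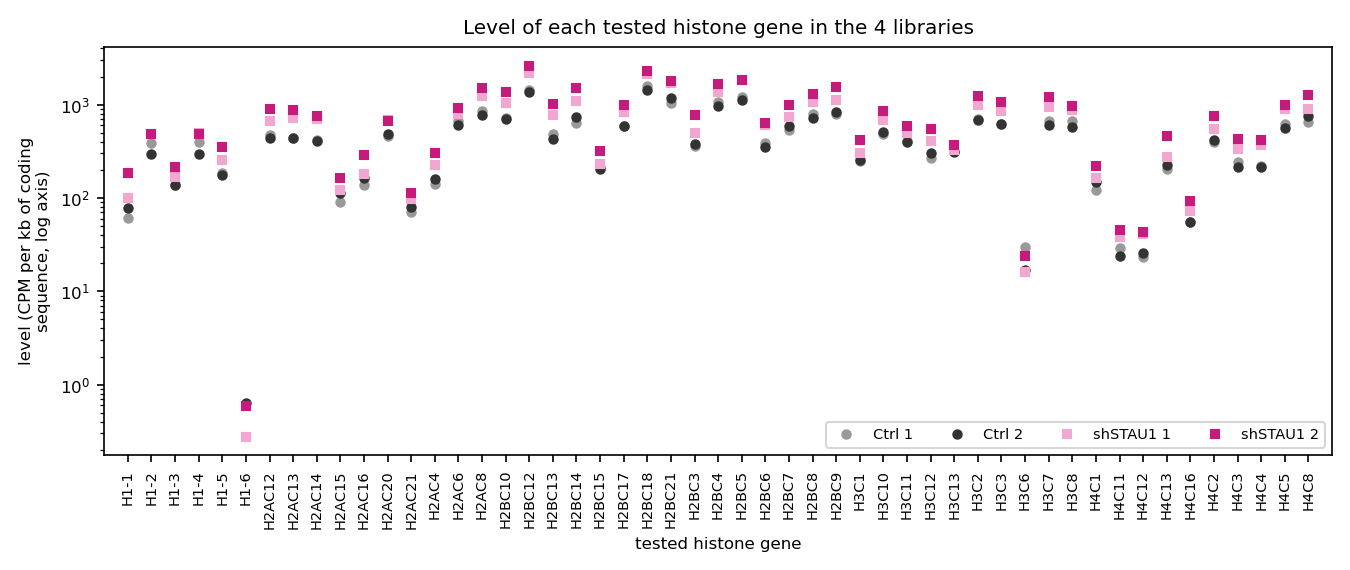
Level of each tested histone gene in the 4 libraries, in CPM per kb of coding sequence on a log axis. The 2 shSTAU1 libraries (squares) lie above the 2 Ctrl libraries (circles) for 49 of 51 genes. The Ctrl 1 value of H1-6 is 0 and is not drawn.

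H3 and H4 form the core tetramer of the nucleosome. The 13 H3 genes summed to 1811 and 1761 CPM in the Ctrl libraries and 2421 and 2995 CPM in the shSTAU1 libraries, with no overlap between the groups. The means were 1786 ± 35.7 CPM in Ctrl and 2708 ± 406 CPM in shSTAU1 (mean ± SD, n = 2 each), 1.52-fold. Of the 10 tested H3 genes, 1 was called, 8 had an unadjusted p under 0.05, and the median log2 fold change was 0.59. The coding sequences of the 13 H3 genes encode only 2 different proteins, one of them shared by 10 genes.

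The H3 gene that rose was H3C7 (ENSG00000277775.1, chr6:26250142-26250635, minus strand), which stood at 272 and 247 CPM in the Ctrl libraries and 389.9 and 500.1 CPM in the shSTAU1 libraries (log2 fold change 0.78 ± 0.15 SE, 1.71-fold, adjusted p = 0.0474). Per kb of coding sequence it was the next most abundant H3 gene, with 632 CPM per kb in Ctrl and 1083 in shSTAU1. The annotated sequence after the stop codon differs among members (0 bases in H3C7 and up to 1712 in H4C8). Reads there may be counted too, so ranks per kb of coding sequence are approximate in every class. The most abundant H3 gene, H3C2, stood at 289.9 and 285 CPM in the Ctrl libraries and 409 and 504 CPM in the shSTAU1 libraries (log2 fold change 0.67, adjusted p = 0.0537). In H3C3, which followed in abundance, the levels were 255 and 254 CPM in the Ctrl libraries and 347 and 437 CPM in the shSTAU1 libraries (log2 fold change 0.63, adjusted p = 0.0649). These 3 genes encode the same protein and had both shSTAU1 libraries above both Ctrl libraries. H3C6, which encodes that protein too, was the only tested member with a negative value: its levels were 12.1 and 6.99 CPM in the Ctrl libraries and 6.69 and 9.71 CPM in the shSTAU1 libraries, and the groups overlapped (log2 fold change -0.22 ± 0.32 SE, adjusted p = 0.704). Its sign changed without Ctrl replicate 1, to 0.21, and without shSTAU1 replicate 1, to 0.02. At 23.3 CPM per kb in Ctrl and 19.9 in shSTAU1, it was also the least abundant tested H3 gene. H3C13 had the smallest positive value among all tested members (log2 fold change 0.15, adjusted p = 0.495). Its levels were 130.1 and 128 CPM in the Ctrl libraries and 134 and 153 CPM in the shSTAU1 libraries. Only 62.2% of the 50-base words of its coding sequence are unique to it, so its counts are uncertain.

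The 15 H4 genes summed to 802 and 828 CPM in the Ctrl libraries and 1132 and 1475 CPM in the shSTAU1 libraries. The means were 815 ± 18.3 CPM in Ctrl and 1304 ± 243 CPM in shSTAU1 (mean ± SD, n = 2 each), 1.60-fold, and the groups did not overlap. All 10 tested H4 genes had both shSTAU1 libraries above both Ctrl libraries, 2 were called, and the median log2 fold change was 0.67. The 15 coding sequences encode 2 proteins, and 14 of the genes encode the same one.

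H4C4 (ENSG00000277157.1, chr6:26188710-26189112, minus strand) stood at 69.3 and 67.0 CPM in the Ctrl libraries and 114 and 131 CPM in the shSTAU1 libraries (log2 fold change 0.84 ± 0.14 SE, 1.79-fold, adjusted p = 0.0357). H4C5 (ENSG00000276966.2, chr6:26204610-26205021, plus strand) stood at 194 and 177 CPM in the Ctrl libraries and 279.9 and 309 CPM in the shSTAU1 libraries (log2 fold change 0.67 ± 0.13 SE, adjusted p = 0.044). In both genes the spread within each group was smaller than the gap between the groups. The most abundant H4 gene per kb of coding sequence was H4C8, with 705 CPM per kb in Ctrl and 1087 in shSTAU1. Its levels were 203 and 237 CPM in the Ctrl libraries and 279 and 399 CPM in the shSTAU1 libraries, with shSTAU1 replicate 2 well above replicate 1 (log2 fold change 0.63, adjusted p = 0.0996). The value of H4C8 fell to 0.32 when shSTAU1 replicate 2 was left out. H4C2 stood at 124 and 130.5 CPM in the Ctrl libraries and 171 and 234 CPM in the shSTAU1 libraries (log2 fold change 0.67, adjusted p = 0.0731, and 0.40 without shSTAU1 replicate 2). The lowest H4 value was that of H4C1, with 37.9 and 46.2 CPM in the Ctrl libraries and 51.6 and 68.5 CPM in the shSTAU1 libraries (log2 fold change 0.51, adjusted p = 0.146, and 0.27 without shSTAU1 replicate 2). H4C11 and H4C12 have identical coding sequences, so reads from one cannot be told from reads of the other inside it. H4C16, the only member on chromosome 12 (chr12:14770720-14771131), had a log2 fold change of 0.57 (adjusted p = 0.121), within the range of the H4 genes on chromosome 6.

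H2A and H2B form the dimers that flank the tetramer, and their genes often lie head to head. The 15 H2A genes summed to 1469.7 and 1430.3 CPM in the Ctrl libraries and 2122 and 2535 CPM in the shSTAU1 libraries. The means were 1450.0 ± 27.8 CPM in Ctrl and 2328 ± 292 CPM in shSTAU1 (mean ± SD, n = 2 each), 1.61-fold. All 10 tested H2A genes had both shSTAU1 libraries above both Ctrl libraries, 3 were called and the median log2 fold change was 0.69.

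H2AC14 (ENSG00000276368.1, chr6:27814302-27814777, minus strand) had the smallest adjusted p of all members: it stood at 160.3 and 158 CPM in the Ctrl libraries and 269.9 and 295 CPM in the shSTAU1 libraries (log2 fold change 0.83 ± 0.12 SE, 1.77-fold, adjusted p = 0.0338). The H2A gene with the largest rise was H2AC13 (ENSG00000196747.4, chr6:27808173-27808667, plus strand), with 173 and 174 CPM in the Ctrl libraries and 279 and 343 CPM in the shSTAU1 libraries (log2 fold change 0.84 ± 0.14 SE, adjusted p = 0.0358). With 16.3% of the words unique in H2AC14 and 17.7% in H2AC13, the counts of both genes are uncertain. H2AC8 (ENSG00000277075.2, chr6:26216921-26217437, plus strand) stood at 338 and 304 CPM in the Ctrl libraries and 492 and 588 CPM in the shSTAU1 libraries (log2 fold change 0.75 ± 0.14 SE, adjusted p = 0.0405). None of the 3 had overlapping groups, and H2AC8 was the most abundant H2A gene per kb of coding sequence, with 817 CPM per kb in Ctrl and 1375 in shSTAU1. H2AC6, which followed, had the smallest H2A value, with 261 and 236 CPM in the Ctrl libraries and 309 and 364 CPM in the shSTAU1 libraries (log2 fold change 0.44, adjusted p = 0.11). H2AC12 lay just outside the threshold, with 183 and 168 CPM in the Ctrl libraries and 260.4 and 344 CPM in the shSTAU1 libraries (log2 fold change 0.78, adjusted p = 0.051). H2AC13, H2AC15, H2AC16 and the untested H2AC11 and H2AC17 encode the same protein, and the tested ones among them ranged in log2 fold change from 0.48 to 0.84.

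H2B genes were the most abundant class, with 48.8% of the members' summed level in Ctrl and 49.6% in shSTAU1. The 19 genes summed to 4584 and 4478 CPM in the Ctrl libraries and 6635 and 7951 CPM in the shSTAU1 libraries. The means were 4531 ± 74.6 CPM in Ctrl and 7293 ± 931 CPM in shSTAU1 (mean ± SD, n = 2 each), 1.61-fold, without overlap. All 15 tested H2B genes had both shSTAU1 libraries above both Ctrl libraries and an unadjusted p under 0.05, and 6 were called. The median log2 fold change was 0.65.

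H2BC13 (ENSG00000185130.5, chr6:27807479-27807929, minus strand) rose most among the called members. It stood at 186 and 164 CPM in the Ctrl libraries and 296 and 387 CPM in the shSTAU1 libraries (log2 fold change 0.96 ± 0.16 SE, 1.95-fold, adjusted p = 0.0358). H2BC14 (ENSG00000273703.1, chr6:27815022-27815489, plus strand) stood at 242 and 280.3 CPM in the Ctrl libraries and 418 and 569.5 CPM in the shSTAU1 libraries (log2 fold change 0.92 ± 0.17 SE, adjusted p = 0.0418). Both belong to the group of histone genes at chr6:27132316-27893891, as does H2BC12 (ENSG00000197903.7, chr6:27138293-27146858, minus strand), which stood at 548 and 514 CPM in the Ctrl libraries and 829.8 and 998 CPM in the shSTAU1 libraries (log2 fold change 0.78 ± 0.14 SE, adjusted p = 0.0364). Per kb of coding sequence H2BC12 had 1394 CPM in Ctrl and 2399 in shSTAU1, but 25.9% of its 50-base words are unique and its level is uncertain. H2BC5 (ENSG00000158373.8, chr6:26158121-26171349, plus strand) and H2BC6 (ENSG00000274290.2, chr6:26183761-26184230, plus strand) lie near each other in the other chromosome 6 group. H2BC5 stood at 457 and 430.1 CPM in the Ctrl libraries and 694 and 698 CPM in the shSTAU1 libraries (log2 fold change 0.65, adjusted p = 0.0379). H2BC6 stood at 148 and 135 CPM in the Ctrl libraries and 231 and 239.5 CPM in the shSTAU1 libraries (log2 fold change 0.74, adjusted p = 0.0358). In both genes the shSTAU1 libraries lay close together, whereas replicate 2 was clearly the higher one in H2BC13, H2BC14 and H2BC12. H2BC21 (ENSG00000184678.10, chr1:149884459-149886682, minus strand), on chromosome 1, stood at 396 and 453 CPM in the Ctrl libraries and 646 and 689.5 CPM in the shSTAU1 libraries (log2 fold change 0.65, adjusted p = 0.0474). H2BC10 lay just outside the threshold (log2 fold change 0.75, adjusted p = 0.051). H2BC18, also on chromosome 1, had 1514 CPM per kb in Ctrl, above H2BC12, and 2227 in shSTAU1, below it (log2 fold change 0.56, adjusted p = 0.0592), and 55.1% of its words are unique. H2BC15 had the smallest H2B value, with 107 and 102 CPM in the Ctrl libraries and 116 and 158 CPM in the shSTAU1 libraries (log2 fold change 0.39, adjusted p = 0.202). The value of H2BC15 was 0.13 without shSTAU1 replicate 2 and 0.60 without shSTAU1 replicate 1. Its annotated span overlaps those of H2AC15 and H2AC16, so reads may be split among these genes. The spans of H2BC5, H2BC6, H2BC12 and H2BC18 also overlap other annotated genes, so their counts may be affected as well.

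H2A and H2B genes on opposite strands that start within 1000 bases of each other formed 12 head-to-head pairs, with 194 to 248 bases between the annotated starts. Both genes were tested in 7 of the pairs. The log2 fold changes within a pair differed by 0.10 in the median and by at most 0.13. All tested H2A genes lay between 0.44 and 0.84 and all tested H2B genes between 0.39 and 0.96. Whether paired genes are more alike than other H2A and H2B genes was not tested. In H2BC13 and H2AC13 the values were 0.96 ± 0.16 and 0.84 ± 0.14 (SE), and in H2BC14 and H2AC14 they were 0.92 ± 0.17 and 0.83 ± 0.12. The pair H2BC4 and H2AC6, in contrast, had 0.57 ± 0.15 and 0.44 ± 0.14, and H2BC15 and H2AC15 had 0.39 ± 0.17 and 0.48 ± 0.19. No difference within a pair was larger than the standard errors of its 2 genes added together. Among H2A and H2B genes, the median log2 fold change was 0.65 in the 19 tested genes with the octamer in the promoter window and 0.65 in the 5 without it.

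The linker histones form the smallest class by number. The 6 H1 genes summed to 771 and 649 CPM in the Ctrl libraries and 992 and 1134 CPM in the shSTAU1 libraries. The means were 709.7 ± 86.1 CPM in Ctrl and 1063 ± 101 CPM in shSTAU1 (mean ± SD, n = 2 each), 1.498-fold, without overlap. With edgeR, 0 of the 6 genes passed the threshold, 5 had an unadjusted p under 0.05, and 3 were called by DESeq2 and 0 by limma-voom. The median log2 fold change was 0.50.

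H1-1 had the largest value of all members, with 39.3 and 50.5 CPM in the Ctrl libraries and 64.6 and 121 CPM in the shSTAU1 libraries (log2 fold change 1.04 ± 0.28 SE, 2.06-fold, adjusted p = 0.082). Both shSTAU1 libraries lay above both Ctrl libraries, but the value depended on the library: without shSTAU1 replicate 2 it was 0.51, and without shSTAU1 replicate 1 it was 1.43. The most abundant linker genes per kb of coding sequence were H1-4, with 347 CPM per kb in Ctrl and 488 in shSTAU1, and H1-2, with 345 CPM per kb in Ctrl and 487 in shSTAU1. H1-4 stood at 262 and 195 CPM in the Ctrl libraries and 325 and 319 CPM in the shSTAU1 libraries (log2 fold change 0.49, adjusted p = 0.12). H1-2 stood at 251 and 191 CPM in the Ctrl libraries and 315 and 311 CPM in the shSTAU1 libraries (log2 fold change 0.50, adjusted p = 0.107). In these genes Ctrl replicate 1 lay above Ctrl replicate 2 and the shSTAU1 libraries nearly coincided, and without Ctrl replicate 2 the log2 fold changes were 0.30 for H1-4 and 0.32 for H1-2. H1-5 stood at 126 and 119 CPM in the Ctrl libraries and 176 and 239 CPM in the shSTAU1 libraries (log2 fold change 0.76, adjusted p = 0.0581, and 0.50 without shSTAU1 replicate 2). H1-6, a testis linker histone, had 0 and 13 counts in Ctrl and 6 and 13 counts in shSTAU1, so no difference was detectable at this depth (log2 fold change 0.45 ± 1.20 SE, adjusted p = 0.849).

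**Figure D3:**
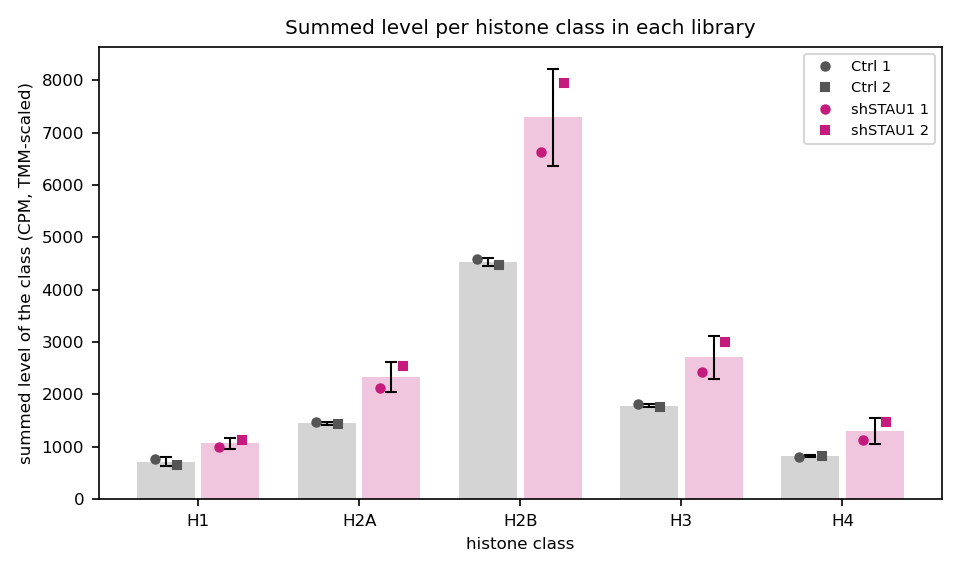
Summed level per histone class (CPM, vertical axis from 0) in each library, with bars at the mean and error bars of 1 SD for 2 libraries per group. In every class both shSTAU1 libraries lie above both Ctrl libraries, from 1.498-fold for H1 to 1.61-fold for H2A and H2B.

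The shSTAU1 libraries differed from each other more than the Ctrl libraries did. Of the 51 tested members, 48 were higher in shSTAU1 replicate 2 than in replicate 1, with a median log2 ratio of 0.33, whereas 29 were higher in Ctrl replicate 1 than in replicate 2, with a median log2 ratio of 0.02. Over all tested genes the median log2 ratio of shSTAU1 replicate 2 to 1 was -0.01. The summed level of all members in shSTAU1 replicate 1 was 1.43 times the Ctrl mean and in replicate 2 it was 1.73 times. By class, the ratio of replicate 2 to replicate 1 ran from 1.14 for H1 to 1.30 for H4.

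By position, the members fall into a group of 34 at chr6:25726063-26285534, a group of 21 at chr6:27132316-27893891, 9 at chr1:149782689-149887965, 2 at chr1:228457364-228458558 and single genes on chromosomes 12 and 21 (RefSeq positions, GRCh38.p14). In the first, 28 genes were tested, 6 were called and the median log2 fold change was 0.65. In the second, 17 were tested, 5 were called and the median was 0.76. On chromosome 1, 5 genes of the group of 9 were tested, 1 was called and the median was 0.52. These medians were not compared by a test.

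The other 17 members had 6 counts or fewer in every library and were not tested. They were 5 H2A genes (H2AC1, H2AC7, H2AC11, H2AC17 and H2AC25), 4 H2B genes (H2BC1, H2BC11, H2BC12L and H2BC26), 3 H3 genes (H3C4, H3C14 and H3C15) and 5 H4 genes (H4C6, H4C7, H4C9, H4C14 and H4C15). Of these, 8 were at 0 in all libraries. A count of 0 allows up to 3 counts, which is 0.0826 to 0.0931 CPM in these libraries by library size, and covers counting error only. Of the 17, 11 overlap another annotated gene, against 9 of the 51 tested members, and H3C14 with H3C15 and H4C14 with H4C15 have identical coding sequences. Widely expressed genes were also at or near 0 here, among them DAXX, NAP1L4 and NELFE, which were at 0 to 2 counts in each library. How the counting program treated reads on overlapping or near-identical genes is not given in the sources used here, and these values do not show that the genes are silent. Among the tested members, the median log2 fold change was 0.65 in the 42 without an overlapping gene and 0.63 in the 9 with one. It was 0.66 in the 28 whose coding sequence shares no 50-base word with that of another member.

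By stem-loop form, the tested members lay close together in the median. The median log2 fold change was 0.65 over the 11 tested genes with the form shown for H2AC8 and H2BC13, 0.60 over the 4 with the form shown for H2BC5, and 0.64 over the 5 with the form shown for H4C5. H3C6, with a form of its own, had a value of -0.22 ± 0.32 SE (adjusted p = 0.704, edgeR), at a low level and with overlapping groups. Its sign changed when single libraries were left out, and the part of the form in this value was not tested. The 30 tested members for which no stem-loop was found, most of which have an annotated transcript that ends within 20 bases of the stop codon, had a median of 0.70.

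**Figure D4:**
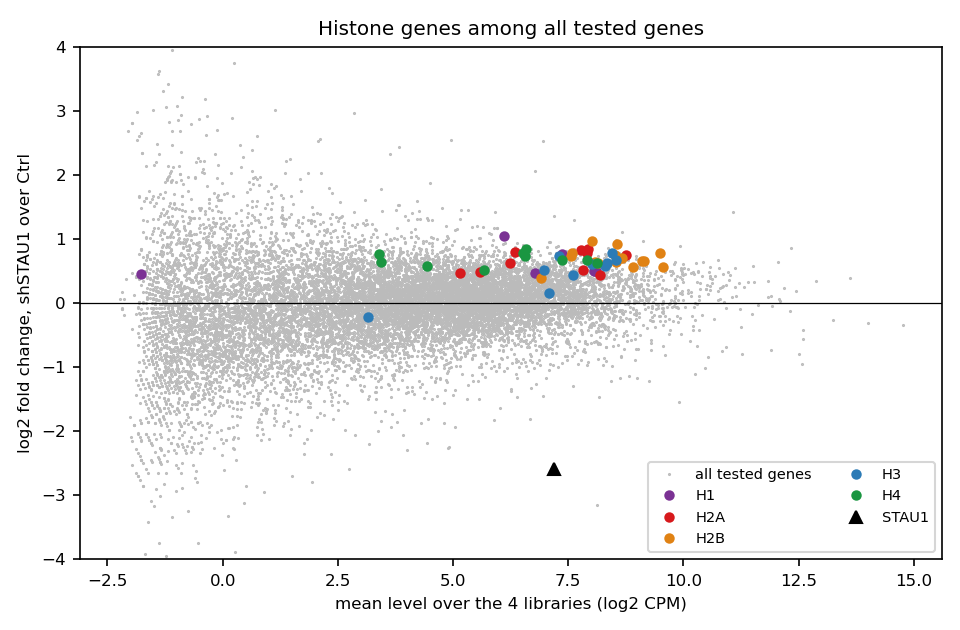
Log2 fold change of shSTAU1 over Ctrl (vertical axis) against the mean level over the 4 libraries (log2 CPM, horizontal axis) for all 14303 tested genes (grey), with the histone genes coloured by class and STAU1 as a triangle. The histone genes have a median of 0.65, against 0.01 over all tested genes, and 17 genes beyond 4 in either direction are not drawn.

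Replication-independent histones, most but not all of which are made throughout the cell cycle from polyadenylated mRNAs, had positive values as well. Of 12 such genes matched, 11 were tested and all 11 had positive log2 fold changes, with a median of 0.55. With edgeR, 0 of the 11 passed the threshold, 9 had an unadjusted p under 0.05, 2 were called by DESeq2 and 0 by limma-voom. Their summed level was 586 and 609 CPM in the Ctrl libraries and 757 and 877 CPM in the shSTAU1 libraries, a ratio of means of 1.37, without overlap between the groups. H3-3B, a gene for the replacement histone H3.3, stood at 143 and 146 CPM in the Ctrl libraries and 172 and 230.4 CPM in the shSTAU1 libraries (log2 fold change 0.47, adjusted p = 0.129). H2AZ1, a gene for the variant H2A.Z, stood at 95.5 and 102 CPM in the Ctrl libraries and 131 and 173 CPM in the shSTAU1 libraries (log2 fold change 0.62, adjusted p = 0.0777). MACROH2A2 had the largest value of the list, 1.29, at 2.56 and 1.74 CPM in the Ctrl libraries and 6.03 and 4.53 CPM in the shSTAU1 libraries (adjusted p = 0.0742). Whether replication-dependent and replication-independent genes differ in their response was not tested.

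Factors of histone gene transcription included 1 gene that rose among 14 tested, NFYB, a subunit of the factor NF-Y that binds CCAAT, with 36.6 and 35.7 CPM in the Ctrl libraries and 56.8 and 65.0 CPM in the shSTAU1 libraries (log2 fold change 0.75 ± 0.14 SE, adjusted p = 0.044). The other subunits, NFYA and NFYC, had log2 fold changes of -0.08 and 0.06 (adjusted p = 0.867 and 0.836). NPAT, the coactivator of histone genes that cyclin E and CDK2 phosphorylate, stood at 133 and 128 CPM in the Ctrl libraries and 165 and 152 CPM in the shSTAU1 libraries (log2 fold change 0.28, adjusted p = 0.218). The cyclin E gene CCNE1 had a log2 fold change of 0.78 (adjusted p = 0.0849) and POU2F1 one of -0.25 (adjusted p = 0.315). The median of the list was 0.25, and 3 of its genes were called higher by DESeq2 and 1 by limma-voom.

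Of the 29 genes of histone pre-mRNA processing and mRNA decay, 26 were tested, and with edgeR 0 passed the threshold, 4 had an unadjusted p under 0.05, 3 were called higher by DESeq2 and 0 by limma-voom. SLBP, which binds the stem-loop, stood at 66.6 and 76.1 CPM in the Ctrl libraries and 81.6 and 96.1 CPM in the shSTAU1 libraries (log2 fold change 0.32 ± 0.15 SE, adjusted p = 0.233). Leaving out 1 library gave SLBP values of 0.18 to 0.43, the highest without shSTAU1 replicate 1. UPF1, the decay helicase, stood at 93.7 and 113 CPM in the Ctrl libraries and 72.6 and 95.4 CPM in the shSTAU1 libraries (log2 fold change -0.30 ± 0.18 SE, adjusted p = 0.325). Leaving out 1 library gave UPF1 values of -0.53 to -0.12, the lowest without shSTAU1 replicate 2. LSM11, a protein of the U7 particle that cuts histone pre-mRNA, stood at 2.83 and 2.05 CPM in the Ctrl libraries and 2.44 and 2.58 CPM in the shSTAU1 libraries (log2 fold change 0.04 ± 0.34 SE, adjusted p = 0.952). The Ctrl and shSTAU1 libraries overlapped for UPF1 and LSM11 and not for SLBP. The largest values of the list were those of the small nuclear ribonucleoprotein genes SNRPF and SNRPG, 0.75 and 0.74 (adjusted p = 0.0816 and 0.051), and the median was 0.16. Of the 20 histone chaperone genes, 16 were tested, and with edgeR 0 passed the threshold, 4 had an unadjusted p under 0.05, 1 was called higher by DESeq2 and 0 by limma-voom, with a median of 0.05.

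S-phase and mitotic genes were set beside the histone genes because histone mRNA follows DNA synthesis. The 35 S-phase genes summed to 3458 and 3907 CPM in the Ctrl libraries and 3683 and 4738 CPM in the shSTAU1 libraries, and the groups overlapped. The ratio of the group means was 1.14, against 1.58 for the histone genes. The S-phase list shares SLBP with the processing and decay list, and CCNE1 and CCNE2 with the transcription list. With edgeR, 0 of the 35 passed the threshold, 7 had an unadjusted p under 0.05 with a higher and 1 with a lower level in shSTAU1, 3 were called higher by DESeq2 and 0 by limma-voom, and the median log2 fold change was 0.17. PCNA, the sliding clamp of DNA replication, stood at 104 and 115 CPM in the Ctrl libraries and 140.1 and 179 CPM in the shSTAU1 libraries (log2 fold change 0.54, adjusted p = 0.0926). MCM5, a subunit of the replicative helicase, stood at 58.6 and 69.6 CPM in the Ctrl libraries and 61.8 and 67.8 CPM in the shSTAU1 libraries (log2 fold change 0.02, adjusted p = 0.958). The 20 G2/M genes summed to 7389 and 8359 CPM in the Ctrl libraries and 6853 and 9080.1 CPM in the shSTAU1 libraries, a ratio of means of 1.01, again with overlap, and their median log2 fold change was 0.08 (0 called by edgeR, 1 at an unadjusted p under 0.05, 0 by DESeq2 and 0 by limma-voom). In both lists shSTAU1 replicate 2 held the highest sum and lay above replicate 1, as it did for the histone genes. In Ctrl, replicate 2 lay above replicate 1 in both lists, but not for the histone genes (9437 CPM in replicate 1 and 9146 CPM in replicate 2). The part of cell cycle distribution in the histone values was not tested.

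**Figure D5:**
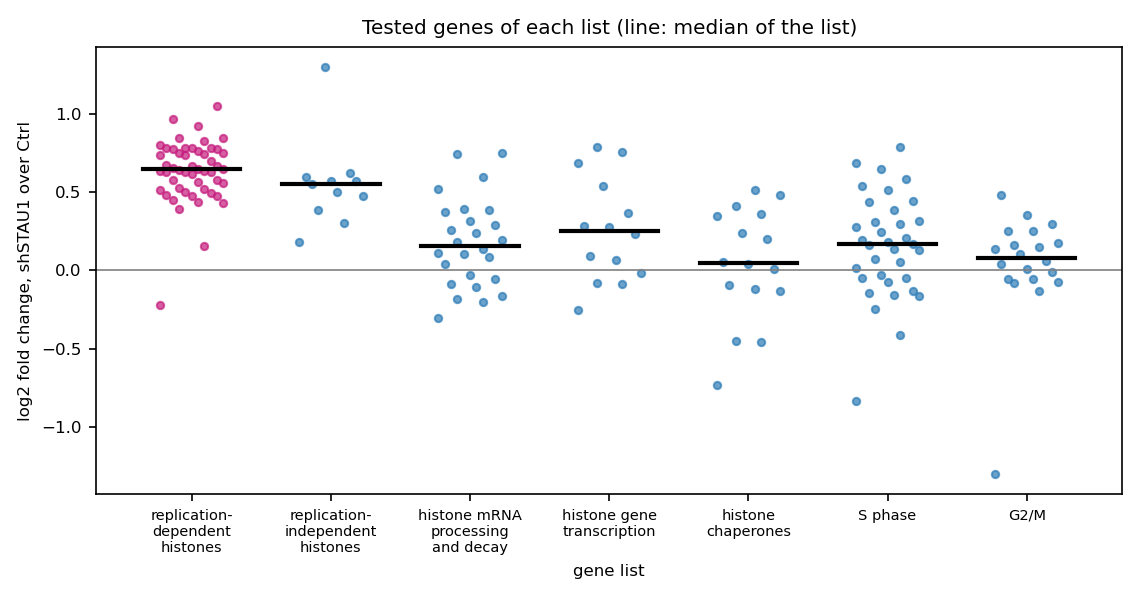
Log2 fold change of shSTAU1 over Ctrl (vertical axis) for the tested genes of each list, with a line at the median. The medians are 0.65 for replication-dependent and 0.55 for replication-independent histones, and 0.16, 0.25, 0.05, 0.17 and 0.08 for the other lists from left to right. SLBP is drawn in both the processing and decay list and the S-phase list, and CCNE1 and CCNE2 in both the transcription list and the S-phase list.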

How the data were processed

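The authors deposited whole-number read counts per gene without normalization for 4 libraries. Their processing notes name Partek and the build hg38, and the aligner, counting program and strand setting are not given in the sources used here. Current symbols were assigned through gene identifiers, and 60295 of 67008 identifiers matched. Positions and promoters came from RefSeq (GRCh38.p14) and transcripts from GENCODE 29. Genes were filtered with filterByExpr, scaled by TMM and tested with the quasi-likelihood test of edgeR 4.0.16 in R 4.3.3, with Benjamini-Hochberg adjustment over the 14303 tested genes and a threshold of 0.05. The biological coefficient of variation was 19.1%. The alternatives were DESeq2 1.42.0, limma-voom (limma 3.58.1), library size, no filter, the replicate number as a block, a length and GC correction, other thresholds and leaving out each library. When 1 library of a group was left out, the remaining one was assumed to vary like those of the other group. Within each group the libraries differed beyond sampling noise (chi-square divided by its degrees of freedom, 25.5 in Ctrl and 61.9 in shSTAU1) and were kept separate. Named genes were STAU1, members past the threshold, the 3 most abundant members of each class, the largest and smallest changes per class, SLBP, NPAT, UPF1, LSM11 and list genes past the threshold. Further genes were chosen with their values in view. The members, lists and named-gene rule were chosen with earlier results of these data known. The models were also run on simulated data with a smaller spread between libraries than here. That run therefore cannot show how often calls are wrong in these data.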

Additional observations from a re-analysis of the deposited data

How the results depend on the processing

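The direction of the histone genes held in every alternative that was run: the median log2 fold change of the tested members lay between 0.48 and 0.79, and 0 members were called lower in any of them. The number of members called higher did not hold. It was 12 with limma-voom and 9 with library size in place of TMM (0.923% of all tested genes called higher), but 36 with DESeq2 (5.4%), 35 at an adjusted p of 0.10 (5.85%), 33 at an unadjusted p of 0.05 with a fold change of 1.5 (6.47%), 4 after the length and GC correction (0.72%) and 0 without the filter on low counts (0.00806%), where 24804 genes were tested. Leaving out 1 library gave 1 to 48. With the replicate number as a block, 48 members were called (15.4% of all tested genes), and with the block and the length and GC correction 47 (14.4%). The block also called 9 of the 11 replication-independent histone genes and 13 of the 35 S-phase genes higher and 1 S-phase gene lower (13.1% of all tested genes were called lower), SLBP higher (adjusted p = 0.034) and UPF1 lower (adjusted p = 0.0359), but SLBP and UPF1 no longer passed with the block and the correction (adjusted p = 0.168 and 0.129). The deviations of same-numbered libraries from their group means were correlated across genes (0.27 over all tested genes and 0.49 over the members). This correlation takes no account of a shift shared by the genes compared, and the members' summed level did not follow the number. The sum was higher in replicate 1 in Ctrl (9437 against 9146 CPM) and in replicate 2 in shSTAU1 (16089.9 against 13301 CPM). No source used here says that the number marks a batch, and with 2 pairs the pairing cannot be settled. The block turned no sign among the named genes. Leaving out 1 library moved the log2 ratio of the summed levels to 0.46 to 0.71 for H1, 0.55 to 0.81 for H2A, 0.55 to 0.81 for H2B, 0.44 to 0.75 for H3, 0.47 to 0.86 for H4 and 0.52 to 0.79 for all members, the lowest without shSTAU1 replicate 2 except in H1, where it was without Ctrl replicate 2. Signs turned only in genes near 0 or at low counts: leaving out 1 library gave -0.56 to 6.24 for H1-6, -0.57 to 0.21 for H3C6 and -0.17 to 0.28 for LSM11, and library size in place of TMM gave -0.011 for LSM11. Except where the construction shows it (fewer libraries, more genes tested), the cause was not tested.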
